A study of Rattus norvegicus with 12 samples.

Results

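The regions described here carried acetylation of lysine 23 of histone H3 (H3K23ac) in every library of that mark, while acetylation of lysine 27 of the same histone (H3K27ac) was listed in both libraries numbered 2 and in neither library numbered 1. Peaks of all 12 deposited lists were merged where they shared at least 1 bp, which gave 23333 regions. Members were chosen by the presence and position of peaks: a merged region was kept when it was under 3000 bp, had a peak in all 4 H3K23ac libraries, had H3K27ac peaks in SIANK2 and NC2 but not in SIANK1 or NC1, and held no peak of H4K5ac, acetylation of lysine 5 of histone H4. This left 3339 regions, 14.3% of the merged set. Since the presence of peaks chose them, presence is given below as a description without a test.

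The lists came from CUT&Tag, in which an antibody tethers a transposase that tags the DNA beside a chromatin mark, in vascular smooth muscle cells taken as primary cells from Rattus norvegicus. The condition labelled SIANK and the condition labelled NC each had 2 libraries for H3K23ac, H3K27ac and H4K5ac, numbered 1 and 2. The labels do not spell out SIANK or NC, and they name no strain, age, dose or time for any group. They also do not say whether the numbers mark separate cultures or animals, so every spread given here is between libraries and may be technical. The lists hold positions and lengths but no read counts, so the depth behind a peak is unknown and limits what an absent peak can show.

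Histone acetylation loosens the hold of nucleosomes on DNA and is read by bromodomain proteins. H3K27ac is placed by the acetyltransferases CBP and its paralogue EP300 and marks active enhancers and promoters. H3K23ac is also found at active chromatin and is placed by several acetyltransferases, KAT6A among them. Vascular smooth muscle cells are the contractile cells of the arterial wall and can lose their contractile state in vessel disease. No genome or annotation of the build behind these lists was used, so regions are given by position, with no gene and no sequence.

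The H3K27ac lists of number 2 were much longer than those of number 1, which bears on every count of the pattern. SIANK2 listed 15413 H3K27ac peaks over 15.1 Mb and NC2 14034 over 13.5 Mb, against 4823 over 3.92 Mb in SIANK1 and 2644 over 1.87 Mb in NC1. The H3K23ac lists were closer to each other, with 14356 and 17141 peaks in SIANK1 and SIANK2 and 12909 and 10720 in NC1 and NC2. H4K5ac lists held 468 and 1711 peaks in SIANK and 100 and 371 in NC. Over the whole merged set, 7578 regions (32.5%) had H3K27ac in both number 2 libraries and in neither number 1 library. With each H3K27ac list held to its 2644 longest peaks, as many as NC1 listed, 607 regions had H3K27ac in number 2 only and 523 in number 1 only under an otherwise unchanged rule. Equal lists bring such counts together by construction. The part that list length plays in the pattern was not tested further.

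H3K27ac in number 2 only was the most frequent pattern at regions with constant H3K23ac. Among 6035 regions under 3000 bp with H3K23ac in all 4 libraries and no H4K5ac, it was found at 3339 (55.3%). H3K27ac was present in all 4 libraries at 1428 of them (23.7%) and in all libraries but NC1 at 1052 (17.4%). Only 1 region showed the mirror pattern, with H3K27ac in both number 1 libraries and in neither number 2 library. H3K27ac was listed in no library at 20 regions. Both SIANK libraries and no NC library had it at 11 regions, and both NC libraries and no SIANK library at 1. A single library had it at 89 regions for SIANK2, 42 for NC2 and 2 for SIANK1.

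**Figure D1:**
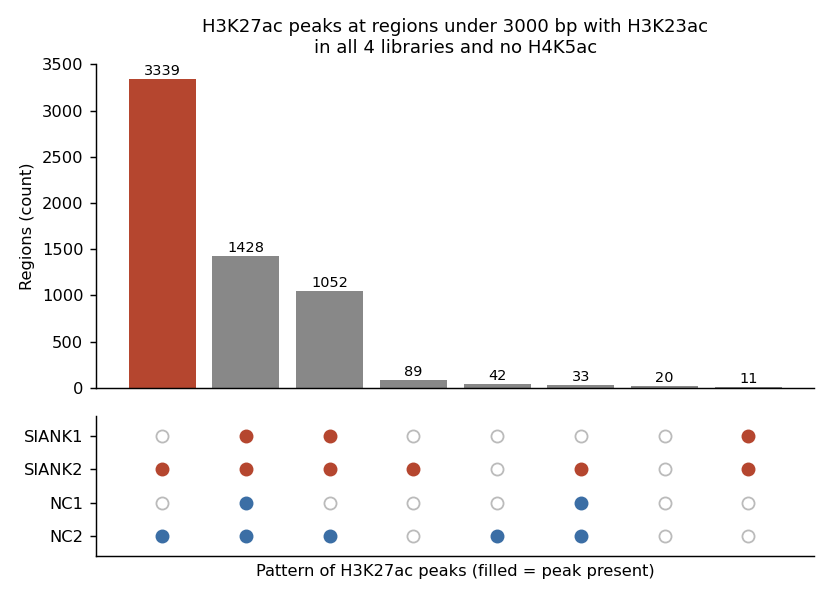
The bars count regions under 3000 bp with H3K23ac in all 4 libraries and no H4K5ac, split by the libraries that list an H3K27ac peak (filled circles), for the 8 most frequent of 16 patterns. The first bar holds the 3339 regions with H3K27ac in SIANK2 and NC2 only, against 1428 regions with H3K27ac in all 4 libraries.

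Other parts of the rule removed fewer regions than the H3K23ac requirement. A further 3226 regions under 3000 bp had the same H3K27ac pattern without H4K5ac but carried H3K23ac in only 1 to 3 libraries, and 142 carried no H3K23ac. Another 424 regions met the rule except that they held an H4K5ac peak. At or over the length limit lay 198 regions that met everything else. The longest regions inside the limit measured 2997 bp, on chromosome 1 from 266729674 to 266732670, and 2992 bp, on chromosome 19 from 43280669 to 43283660. The genome build of these and all other positions is not given in the sources at hand. Just outside it were regions of 3009 bp, on chromosome 20 from 29471010 to 29474018, and 3015 bp, on chromosome 7 from 143850706 to 143853720.

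The 3339 regions made up a large part of each of the 6 lists that named them. They took 24.5% and 19.9% of the H3K23ac peaks of SIANK1 and SIANK2, and 26.9% and 32.1% of those of NC1 and NC2. Among H3K27ac peaks they took 22.4% in SIANK2 and 24.7% in NC2. Their median length was 1404 bp, with quartiles of 1098 and 1811 bp. Regions with H3K27ac in all 4 libraries and otherwise the same rule had a median of 1715.5 bp, and those with H3K27ac in all but NC1 had 1641.5 bp. Most members were of middle size: 591 were under 1000 bp, 1304 lay between 1000 and 1500 bp, and 194 were 2500 bp or more.

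H3K23ac covered more bases in SIANK2 than in any other H3K23ac library at these regions. The median H3K23ac bases per region were 888 bp in SIANK1 and 1165 bp in SIANK2, against 829 bp in NC1 and 830 bp in NC2. The NC libraries were nearly equal, SIANK1 lay slightly above them, and SIANK2 stood apart. SIANK2 was also highest over all 7396 regions with H3K23ac in all 4 libraries. The medians there were 1321 bp in SIANK2, 1034 bp in SIANK1, 949 bp in NC1 and 948 bp in NC2. Averaged over libraries, the member medians were 1026.5 ± 196 bp in SIANK and 829.5 ± 0.707 bp in NC (SD, n = 2 each), a difference about as large as the spread between the SIANK libraries. H3K27ac had medians of 1047 bp in SIANK2 and 991 bp in NC2 at members, each 1 library.

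**Figure D2:**
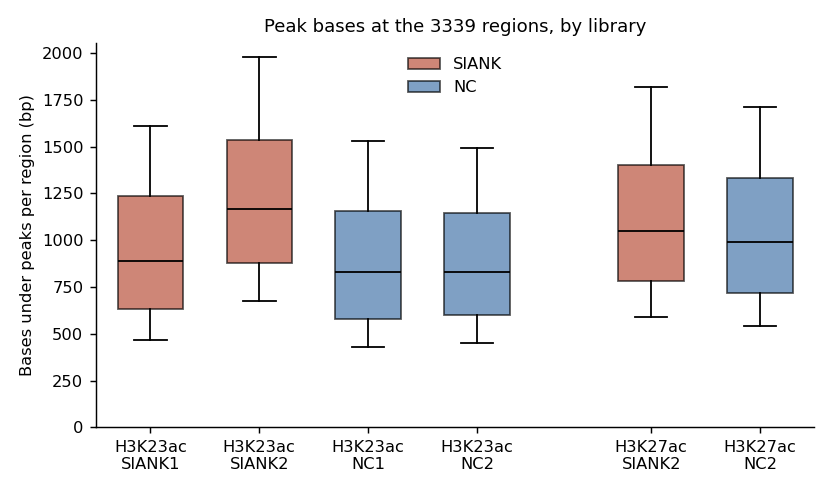
Boxes show the bases under peaks per region at the 3339 regions for each of 6 libraries (line at the median, box from the lower to the upper quartile, whiskers at the 10th and 90th percentiles). SIANK2 has the highest H3K23ac box, with a median of 1165 bp, while the other 3 H3K23ac medians lie between 829 and 888 bp.

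No member region passed the test for a difference in H3K23ac bases between SIANK and NC. Over all 7396 regions with H3K23ac in all 4 libraries, limma on log2 bases with Benjamini-Hochberg adjustment called 0 longer (0%) and 0 shorter (0%), and the lowest adjusted p at a member was 0.641. With 2 libraries a condition, the lack of a call cannot show that the conditions were alike. At an unadjusted p under 0.05, 249 members were longer in SIANK, 7.46% against a background of 7.26%, and 3 were shorter, 0.0898% against 0.0406%. The member median log2 ratio of SIANK over NC was 0.26 (quartiles 0.012 and 0.55), with a median standard error of 0.34 for a single region, and the median over all 7396 regions was 0.25. With each library centred on its own median over all these regions, the member median became −0.043 and that over all regions −0.050, and the unadjusted calls at members split into 100 longer (2.99%, background 2.77%) and 54 shorter (1.62%, background 1.14%). Without SIANK1 the member median was 0.43, with 246 unadjusted calls longer (7.37%, background 6.79%) and 2 shorter (0.0599%, background 0.027%). Without SIANK2 it was 0.11, with 128 longer (3.83%, background 3.26%) and 93 shorter (2.79%, background 2.2%). In these 2 fits the spread came from the NC pair, and the lone SIANK library was assumed to vary like it.

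Set against each other by number, the libraries differed more in number 2. SIANK2 had more H3K23ac bases than NC2 at 2902 members (86.9%) and fewer at 433, with a median ratio of 1.32. Over all regions with H3K23ac in both libraries the share was 86.6% and the ratio 1.31. SIANK1 had more than NC1 at 1883 members (56.4%) and fewer at 1449, with a median ratio of 1.06. Over all regions with both libraries the share was 57.3% and the ratio 1.07. Both SIANK libraries lay above both NC libraries at 1212 members (36.3%), against 37.8% of all regions tested, and below both at 83 (2.49%), against 1.92%. Members thus sat near the background in both directions. The per-chromosome median log2 ratio ran from 0.17 on chromosome 2 to 0.34 on chromosome X.

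For H3K23ac, no region was called between the replicate numbers that divided the H3K27ac lists, in a fit to only 4 libraries. The limma fit with condition and number called 0 of 7396 regions longer (0%) or shorter (0%) in number 2, with a lowest adjusted p of 0.917 at a member. With both terms fitted, few residual degrees of freedom remained. The lack of a call therefore cannot show that H3K23ac was alike between numbers. At an unadjusted p under 0.05 it gave 154 members longer (4.61%, background 3.96%) and 14 shorter (0.419%, background 0.433%). The member median log2 ratio of number 2 over number 1 was 0.19, and the median over all 7396 regions was 0.17. With each library centred on its own median, these became 0.010 and −0.0057. Without centring, the member median was 0.33 without either NC library, when it rests on the SIANK pair. It was 0.017 without either SIANK library, when it rests on the NC pair. NC2 had more H3K23ac bases than NC1 at 1719 members (51.5%, against 50.9% of all regions with both) and fewer at 1611. H3K27ac was listed at every one of them in NC2 and at none in NC1, as the rule requires.

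The bases under H3K27ac peaks were similar in SIANK2 and NC2. SIANK2 had more at 1949 members (58.4%, against 57.4% of all regions with H3K27ac in both) and fewer at 1378, and the median ratio was 1.04. With 1 library a condition there is no test, and a ratio of at least 1.5 was used to count changes. By that rule 432 members were longer in SIANK2 (12.9%, background 13.3% of 11661 regions with H3K27ac in both libraries) and 207 were shorter (6.20%, background 7.74%). Centred on the library medians, the counts were 326 longer (9.76%, background 10.5%) and 274 shorter (8.21%, background 9.84%), a share of longer members among those counted of 54.3%, against 67.6% without centring.

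Within number 2 the broader mark differed by condition, but not against H3K23ac of number 1. In SIANK2, H3K27ac covered fewer bases than H3K23ac at 2193 members and more at 1135, a median ratio of 0.926. In NC2 it covered more at 2285 members and fewer at 1043, a median ratio of 1.14. The log2 SIANK2 over NC2 ratio was larger for H3K23ac than for H3K27ac at 2431 members (72.8%), with a median difference of 0.31. Each of these values rests on single libraries. Against H3K23ac of number 1, the member ratio was 1.14 for H3K27ac SIANK2 over H3K23ac SIANK1. It was also 1.14 for H3K27ac NC2 over H3K23ac NC1. A ratio below 1 in SIANK was thus seen only with H3K23ac SIANK2. Within number 2, the ratios of H3K27ac over H3K23ac were 0.920 in SIANK2 and 1.14 in NC2 at regions with H3K27ac in all 4 libraries. Over all regions with both marks in the library they were 0.923 and 1.14.

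Ratios of one mark were hardly correlated with ratios of the other, which cannot show that their changes were unrelated. The H3K23ac ratio of a single member had a median standard error of 0.34. The H3K27ac ratio rests on 1 library a condition, so uncertainty of this size may hide a relation. Across members, the correlation between the log2 SIANK over NC ratio of H3K23ac and the log2 SIANK2 over NC2 ratio of H3K27ac was 0.064 (Pearson) and 0.069 (Spearman), over 3339 regions that share the same libraries. Where both SIANK libraries lay above both NC libraries for H3K23ac, H3K27ac was at least 1.5 times longer in SIANK2 at 172 of 1212 members (14.2%), against 303 of 2725 such regions (11.1%) among all with H3K23ac in all 4 libraries. It was shorter at 91 of these members (7.51%), against 157 of the 2725 (5.76%). Where H3K23ac groups overlapped, it was longer at 252 of 2044 members (12.3%), against 409 of 4341 regions (9.42%), and shorter at 114 members (5.58%), against 218 regions (5.02%).

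**Figure D3:**
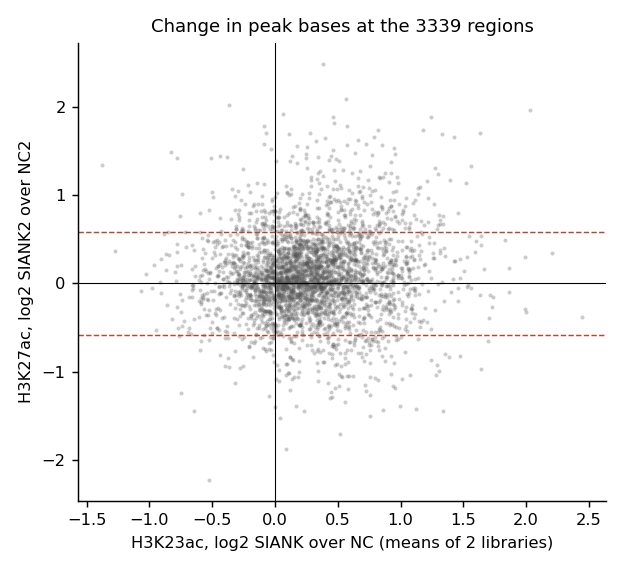
Each point is 1 of the 3339 regions, placed by the log2 SIANK over NC ratio of H3K23ac bases (means of 2 libraries) and the log2 SIANK2 over NC2 ratio of H3K27ac bases; dashed lines mark a ratio of 1.5 in either direction. The cloud is shifted to the right, with a median of 0.26, and shows hardly any slope (Pearson 0.064).

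Bases under peaks, unlike their ratios between conditions, ran in parallel between the marks. The log2 bases of H3K27ac SIANK2 and H3K23ac SIANK2 had a Pearson correlation of 0.748 across members, and those of H3K27ac NC2 and H3K23ac NC2 of 0.641. H3K27ac SIANK2 and H3K27ac NC2 correlated at 0.707. The lowest value of the 15 library pairs was 0.426, between H3K23ac SIANK1 and NC1. All these pairs share the merged region that bounds them, and the part of region length in these values was not tested.

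The 2 marks were centred on nearly the same place, within a merged region that bounds both. In SIANK2, H3K23ac covered a median of 87.3% of that region and H3K27ac 78.7%. Such coverage leaves little room for large offsets or low shares, so the values below are a description. In SIANK2 the centre of H3K27ac lay a median of 83.5 bp from that of H3K23ac (quartiles 35.5 and 158 bp), and in NC2 94 bp (38 and 185 bp). Centres were within 100 bp at 1916 members in SIANK2 and at 1743 in NC2, and over 500 bp apart at 42 and 88. A median of 98.0% of H3K27ac bases lay under H3K23ac in SIANK2, and 81.7% in NC2. Regions with H3K27ac in all 4 libraries were much alike. Their median offsets were 81.5 bp in SIANK2 and 94.25 bp in NC2, with 99.2% and 83.8% of H3K27ac bases under H3K23ac. Among members, the whole H3K27ac stretch lay within H3K23ac at 1398 in SIANK2 and at 437 in NC2, and the reverse held at 539 and 1448. This gap between conditions was not seen against H3K23ac of number 1. There a median of 78.4% of H3K27ac SIANK2 bases lay under H3K23ac SIANK1, and 80.5% of H3K27ac NC2 bases under H3K23ac NC1. The whole H3K27ac stretch lay within it at 536 and 604 members. Within number 2, the marks touched no common base at 0 members in SIANK2 and at 11 in NC2. H3K23ac centres of SIANK1 and NC1 lay farther apart, by a median of 130.5 bp, than those of SIANK2 and NC2, at 92.5 bp.

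Most members were simple in shape. One unbroken peak in each of the 6 libraries was found at 2909 (87.1%). H3K23ac SIANK1 was split into several peaks most often, at 5.06% of members, and H3K23ac SIANK2 least often, at 2.16%. The gap between such peaks had a median of 420.5 to 508.5 bp by library and was never under 308 bp, and peaks of the same list lay no closer than 295 bp in any of the 12 lists. A single peak of another library bridged 94.4% to 99.2% of the gaps. Such bridging follows from the merging, which joins separate peaks of a list only where peaks of other lists cover the gap. At 3223 members all 6 libraries shared some bases, a stretch with a median of 510 bp over all 3339, or 39.4% of the region. At the other 116 no base was common to all 6. H3K23ac SIANK2 set 35.3% of the outer edges, more than any other library, and H3K23ac NC2 the fewest, 7.08%.

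Members were a larger share of constant H3K23ac regions where peaks were short. Of 5852 such regions with H3K27ac in both number 2 libraries, 57.1% were members. In the decile with the fewest H3K27ac bases in SIANK2 and NC2, from 348 to 626 bp, members were 73.0% and regions with H3K27ac in all 4 libraries 12.6%. In the top decile, from 1852 to 2928 bp, members were 38.6% and regions with all 4 were 38.7%. By H3K23ac bases, the share of members was 73.0% in the lowest decile and 31.6% in the highest. Peak length is from the same lists as the rule, so these shares describe the choice. Within their own lists, members sat at a median length percentile of 64.8 for H3K27ac SIANK2 and 61.4 for H3K27ac NC2, against 76.5 and 75.7 for regions with H3K27ac in all 4 libraries.

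**Figure D4:**
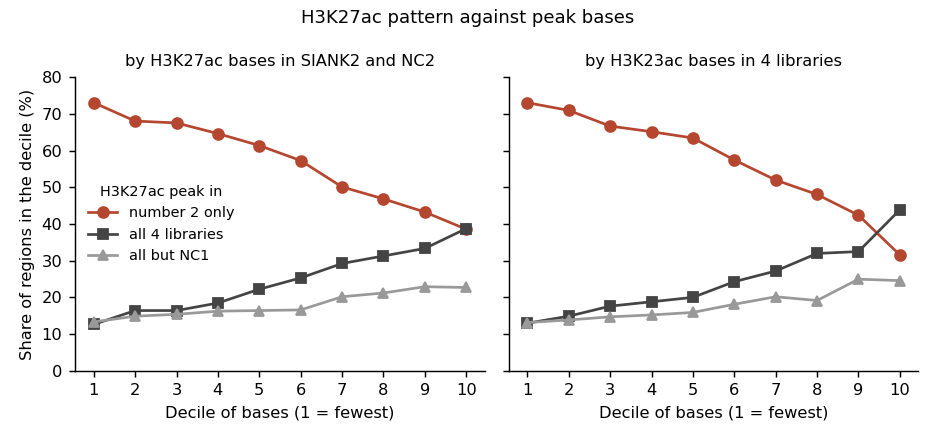
Lines give the share (%) of regions in each decile of bases under peaks, 1 being the fewest, that had H3K27ac in number 2 only, in all 4 libraries or in all but NC1, with deciles by H3K27ac bases of SIANK2 and NC2 on the left and by H3K23ac bases of 4 libraries on the right. The share with H3K27ac in number 2 only is 73.0% in the first decile of both panels and 38.6% and 31.6% in the last.

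Members lay on chromosomes 1 to 20 and X. Chromosome 1 held the most, 366, followed by chromosome 10 with 310 and chromosome 3 with 282, while chromosome X held 42 and chromosome Y none of its 5 merged regions. On the other chromosomes their share of merged regions ran from 11.6% on chromosome 2 to 16.6% on chromosome 9. As a share of constant H3K23ac regions under 3000 bp without H4K5ac it ran from 48.2% on chromosome 18 to 59.4% on chromosome 16. Median member length by chromosome ran from 1273 bp on chromosome 11 to 1498 bp on chromosome 14.

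Members mostly stood away from H3K27ac of the number 1 libraries, about as far as regions with H3K27ac in all 4 libraries stood from other such regions. The median gap to the nearest region with H3K27ac in SIANK1 or NC1 was 58961 bp, and 89 members (2.67%) had one within 1 kb. The gap to the nearest other merged region of any kind had a median of 9217 bp, and 1737 members (52.0%) had a neighbour within 10 kb. Regions with H3K27ac in all 4 libraries had medians of 62979.5 bp and 12706.5 bp for the same gaps, and 2.45% had H3K27ac of a number 1 library in another region within 1 kb. Another member lay within 10 kb of 499 members (14.9%), and a region with H4K5ac within 10 kb of 124 (3.71%). For regions with H3K27ac in all 4 libraries, a member lay within 10 kb of 10.2% and a region with H4K5ac within 10 kb of 3.08%.

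Members followed each other directly, with gaps under 10 kb, in few and short runs. There were 151 runs of 2, 13 of 3 and 2 of 4. One of the longest runs lay on chromosome 1 from 222229828 to 222247747, where H3K23ac covered 1451, 1301, 1779 and 963 bp of its 4 members in SIANK1. The other lay on chromosome 6 from 7096574 to 7110414. Its last member, from 7108070 to 7110414, had H3K23ac of 1870 and 2096 bp in SIANK1 and SIANK2 and 1820 and 2316 bp in NC1 and NC2, so the groups overlapped there. The member farthest from any other merged region lay on chromosome X from 143525137 to 143526604, with 4060334 bp to its neighbour. Its H3K23ac covered 1189 and 1241 bp in SIANK1 and SIANK2, against 596 and 566 bp in NC1 and NC2, without overlap between groups (log2 1.06, SE 0.26, limma adjusted p = 0.641).

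A further 10 members were chosen as long in every library, ranked by their lowest within-list percentile over the 6 H3K23ac and H3K27ac values. A ranking of this kind among regions under 3000 bp admits only ratios near 1, so the values describe these regions and say nothing about the conditions. The top member was on chromosome 16 from 62238579 to 62241471. H3K23ac covered 2206 and 2855 bp of it in SIANK1 and SIANK2, against 2843 and 2593 bp in NC1 and NC2. H3K27ac covered 2617 bp in SIANK2 and 2786 bp in NC2, so the groups overlapped for H3K23ac. The second member, on chromosome 10 from 61831776 to 61834505, and the third, on chromosome 5 from 57290906 to 57293785, were likewise 2730 and 2880 bp long with H3K23ac ratios of 0.942 and 0.996. Over the top 10 members the H3K23ac ratio of SIANK over NC ran from 0.924 to 1.28 and the H3K27ac ratio of SIANK2 over NC2 from 0.884 to 1.23. Their lowest percentiles ran from 93.3 to 95.4.

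The largest H3K23ac ratio belonged to a member on chromosome 4 from 80910126 to 80913088. H3K23ac covered 2299 and 2655 bp in SIANK1 and SIANK2, against 344 and 596 bp in NC1 and NC2 (ratio 5.46, log2 2.45, SE 0.36, limma adjusted p = 0.641). The groups lay far apart, while H3K27ac covered 2162 bp in SIANK2 and 2821 bp in NC2, the higher value being in NC2. At the second, on chromosome 16 from 71301540 to 71303975, H3K23ac covered 1739 and 2177 bp in SIANK1 and SIANK2, against 478 and 373 bp in NC1 and NC2. Its H3K27ac covered 2047 bp in SIANK2 and 1616 bp in NC2, so the broad H3K27ac was present in both conditions where H3K23ac was narrow in NC.

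The third, on chromosome 14 from 16414989 to 16416948, was narrow in NC for both marks. H3K23ac covered 1336 and 1960 bp in SIANK1 and SIANK2, against 356 and 442 bp in NC1 and NC2, and H3K27ac covered 1923 bp in SIANK2 and 494 bp in NC2. The next members in this order, on chromosome 1 from 92775365 to 92777468 and from 218189196 to 218191781, had H3K23ac ratios of 4.00 and 3.98 and H3K27ac ratios of 0.801 and 1.23. None of these 5 members passed the limma test after adjustment (adjusted p = 0.641 for each). They were ranked by the same values that are tested, so the ranking itself is a description.

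At the other end, both SIANK libraries lay below both NC libraries at each of the 5 members with the lowest H3K23ac ratio. On chromosome 2 from 198411911 to 198413142, H3K23ac covered 405 and 430 bp in SIANK1 and SIANK2, against 1161 and 1008 bp in NC1 and NC2 (ratio 0.386, log2 −1.37, SE 0.27, limma adjusted p = 0.641). On chromosome 1 from 98464080 to 98465846 it covered 556 and 489 bp in SIANK1 and SIANK2, against 1184 and 1348 bp in NC1 and NC2. The next, on chromosome 1 from 199286946 to 199288675, rested on 1 library: H3K23ac covered 337 bp in SIANK1 and 1453 bp in SIANK2, against 1466 bp in both NC1 and NC2. The ratio was 0.490 on chromosome 9 from 81565111 to 81566647, while the last member, on chromosome 3 from 154612547 to 154613865, had 0.507, but at both the groups nearly met, with at most 372 and 778 bp in a SIANK library and 387 and 812 bp in NC2. Another member shorter in SIANK at an unadjusted p under 0.05 was on chromosome 1 from 15083234 to 15084014, with 323 and 348 bp in SIANK1 and SIANK2, against 701 and 562 bp in NC1 and NC2; it was named after its values were seen.

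**Figure D5:**
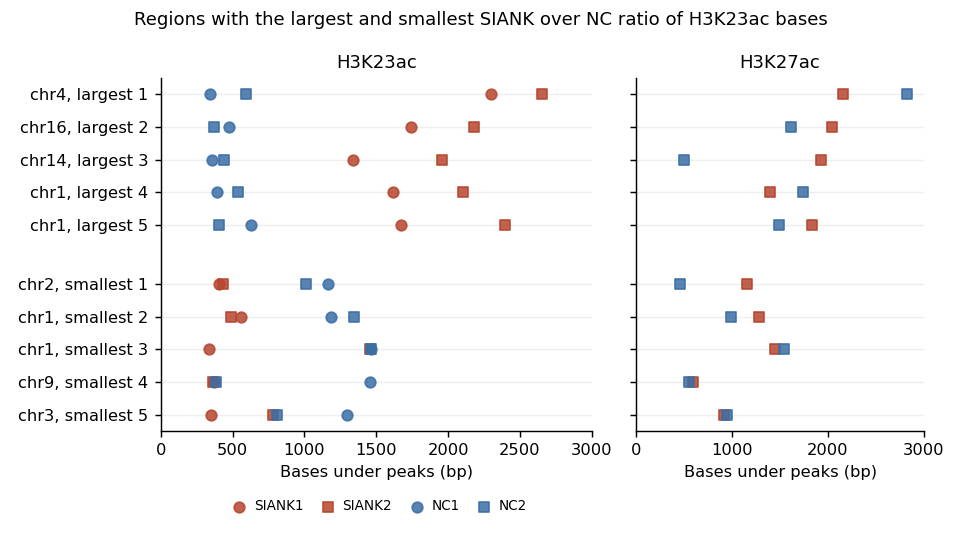
Points give the bases under peaks per library (bp) at the 5 members with the largest and the 5 with the smallest SIANK over NC ratio of H3K23ac, for H3K23ac in 4 libraries on the left and H3K27ac in SIANK2 and NC2 on the right. At the member on chromosome 4 the SIANK libraries have 2299 and 2655 bp of H3K23ac against 344 and 596 bp in NC, and H3K27ac has 2162 bp in SIANK2 and 2821 bp in NC2.

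The largest H3K27ac ratios were found where 1 condition listed a short peak. On chromosome 10 from 84730860 to 84733606, H3K27ac covered 2195 bp in SIANK2 and 391 bp in NC2, a ratio of 5.61. H3K23ac there covered 1225 and 1487 bp in SIANK1 and SIANK2, against 718 and 1493 bp in NC1 and NC2, so its groups overlapped. The lowest ratio, 0.214, was on chromosome 3 from 120726595 to 120728972, with 379 bp in SIANK2 and 1774 bp in NC2. Its H3K23ac covered 666 and 2286 bp in SIANK1 and SIANK2, against 2378 and 1325 bp in NC1 and NC2, again without separating the groups. The top 3 members by this ratio ran from 4.05 to 5.61 and the lowest 3 from 0.214 to 0.307, with no replicate check.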

How the data were processed

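The authors deposited 1 peak list per library, with chromosome, start, end and length in bp per the file headers. BWA and deepTools are named, with no version and no role, per the submitters' processing notes. How peaks were called, against which control and on which build is not given in the sources used here. In these 12 lists no peak was shorter than 277 bp. Lists carry no counts or scores, so no depth, interval or floor is given.

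The members, the lists compared and the tests were chosen with earlier results of these data known. Bases under peaks were summed per merged region and library. limma 3.58.1 (R 4.3.3) was fitted to their log2 over the 7396 regions with H3K23ac in all 4 libraries, with a threshold of 0.05 on Benjamini-Hochberg adjusted p. Region positions count from 1. Named regions followed fixed ranks: 10 by lowest within-list percentile, 5 by largest and 5 by smallest H3K23ac ratio, 3 each by H3K27ac ratio, 2 on each side of the length limit, the longest runs and the most isolated member. Alternatives covered merging, length limits, list length, scaling, the replicate number and leaving out each library. Merging, the rule and the fit were tested on simulated data. Python 3.11.15, pandas 2.3.3, numpy 2.4.6 and matplotlib 3.10.9 were used. IgG libraries were not analysed here.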

Additional observations from a re-analysis of the deposited data

Results flagged for a closer look

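At 2 of the named regions the marks went opposite ways between conditions, with both SIANK libraries on one side of both NC libraries for H3K23ac and a ratio of at least 1.5 the other way for H3K27ac. On chromosome 2 from 198411911 to 198413142 the H3K23ac ratio of SIANK over NC was 0.386 and the H3K27ac ratio of SIANK2 over NC2 was 2.53 (1156 bp in SIANK2 and 457 bp in NC2). On chromosome 4 from 179268385 to 179269774 the H3K23ac ratio was 1.43 and the H3K27ac ratio 0.307 (361 bp in SIANK2 and 1174 bp in NC2). H3K23ac there covered 624 and 763 bp in SIANK1 and SIANK2, against 561 and 413 bp in NC1 and NC2. The groups thus nearly met (log2 0.52, SE 0.31, limma adjusted p = 0.74). This region was named for its low H3K27ac ratio, and the region on chromosome 2 for its low H3K23ac ratio. The difference between marks was not tested, since H3K27ac had 1 library a condition. Among all members with both SIANK libraries below both NC libraries for H3K23ac, 8 of 83 (9.64%) had H3K27ac at least 1.5 times longer in SIANK2, against 14 of 138 (10.1%) among all regions with H3K23ac in all 4 libraries. Among members with both SIANK libraries above both NC libraries, 91 of 1212 (7.51%) had it at least 1.5 times shorter, against 157 of 2725 (5.76%).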

How the results depend on the processing

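Of 58 values under alternatives, 50 stayed within the spread or within 1.5 times the reported count and 8 moved beyond that. This tally does not measure stability, since some values could not move. The fits with the replicate block or with number alone keep the main medians, as the design is balanced. Leaving out either library of a condition gives the same median between numbers. Counts of 0 called members came from fits to few libraries. The 3339 member regions became 607 with H3K27ac lists held to their 2644 longest peaks (459 of the members overlapped one of them) and 1623 with peaks at or above their list's median length (1043). They became 2344 where peaks had to cover at least 50% of the region. That count stayed within 1.5 times, though only 1428 of the members overlapped one of these regions. With both H3K27ac lists of number 1 left out they became 5861, an alternative chosen after seeing the data. Leaving out 1 library at a time gave 3339 to 4394 regions. With centring, the median log2 H3K23ac ratio of SIANK over NC was −0.043. The ratio of number 2 over number 1 fell from 0.19 to 0.010 with centring. That was counted as staying, since the spread used was 0.25. A fold of 2 gave 122 longer and 52 shorter members for H3K27ac. Against H3K23ac of number 1 the mean of the 2 median centre offsets was 104 bp, not 88.75 bp. The mean of the 2 median shares of H3K27ac bases under H3K23ac was 79.5% there, not 89.8%. That share was counted as staying, since the spread used was 11.5. The median gap to regions with H3K27ac in both number 1 libraries was 134488 bp. Leave-one-out medians of the log2 ratio ran from 0.11 to 0.43 between conditions and from 0.017 to 0.33 between numbers, and no such fit called a member between conditions (0 in each). Between numbers it left no residual degrees of freedom and gave no test. The labels do not say that numbers pair the libraries: with the replicate block, limma called 0 members (lowest adjusted p = 0.706), and number 2 minus number 1 differences correlated at −0.025 between conditions over 7396 regions. The cause of these moves was not tested, and without counts a short list cannot be told apart from a shallow one.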
